A study of Mus musculus with 5 samples.

Results

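The genes of the RUNX family, Runx1, Runx2 and Runx3, and Cbfb, which encodes the common partner of all RUNX proteins, were examined for Runx3 occupancy and for H3K4me1, a histone mark that is abundant at enhancers. Members were all regions of the Runx3 and H3K4me1 peak lists that overlapped 1 of these 4 gene bodies or the 50 kb on either side (GENCODE vM1 annotation, mouse genome mm9). This gave 21 of the 9135 Runx3-bound regions and 46 of the 18992 H3K4me1-marked regions. The cells were CD8+ T cells (CD8-TC) from the spleen of wild-type (WT) ICR mice, collected with anti-CD8 magnetic beads, TCR-activated for 2 days and then grown for 4 days with 100 u/ml IL-2. All 5 libraries came from such cells: 2 immunoprecipitations with an in-house polyclonal antibody to Runx3, 2 with non-immune rabbit serum (NIS) as control and 1 labelled as anti-H3K4me1. The age of the mice and pooling of animals are not given in the sources used here. The reads of an antibody's libraries had been joined for a single round of peak calling, and the peaks carry no height. Values therefore have no replicate error, no test between conditions is possible and the depth behind a single region is unknown. The total read numbers that the paper gives for these cells were lower than those for its freshly isolated CD8-TC. Absence of a region from a list is therefore not absence of binding or mark. The lists hold no expression values, so the cell type could not be checked against marker genes. Intervals are 95% Wilson intervals and cover counting error among regions only.

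RUNX proteins bind DNA through the Runt domain, and Cbfb, which does not itself contact DNA, raises the affinity of that binding. Runx3 is best known in the CD8 lineage and in cytotoxic lymphocytes, Runx1 in blood stem cells and throughout T cell development, and Runx2 as the regulator of osteoblast formation. Each of the RUNX genes is transcribed from a distal promoter, P1, and a proximal promoter, P2, which lies inside the gene and gives a protein with another N-terminus. Cbfb has a single annotated promoter. The distance between P1 and P2 in the annotation was 128.7 kb in Runx1, 77.9 kb in Runx2 and 31.8 kb in Runx3.

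RUNX proteins recognise a 6-base motif, whose commonest form at these genes was TGTGGT. The variants TGTGGC and TGCGGT differ from it by a single base, and the variant TGCGGC differs from it at both of those places. On the other strand TGTGGT reads as ACCACA. The 2 kb windows around the P1 starts of Runx1, Runx2 and Runx3 shared a single longest word of 18 bases, which holds 2 copies of ACCACA separated by 2 bp. It is given here in the 30 bases around it, on the strand of the gene, with RUNX motifs in capitals, because 2 of these promoters were Runx3-bound and the third was not.
Runx1 P1 (chr16:92826270-92826299, minus strand, bound): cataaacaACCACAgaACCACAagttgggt
Runx2 P1 (chr17:44951532-44951561, minus strand, not bound): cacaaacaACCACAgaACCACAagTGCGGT
Runx3 P1 (chr4:134676418-134676447, plus strand, bound): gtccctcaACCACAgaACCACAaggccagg

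The 18-base word occurred 3 times in the 21 mm9 chromosomes, at these P1 promoters. Relative to the P1 start it was centred at +26 bp in Runx1 (92826276 to 92826293) and at -16 bp in Runx2 (44951538 to 44951555), in both within an untranslated exon of annotated transcripts. In Runx3 it was centred at -134 bp (134676424 to 134676441), outside untranslated exons. The sites in Runx1 and Runx3 lay within Runx3-bound regions, at -143 and +159 bp from the region's centre, counted in the direction of transcription. The site in Runx2 lay in none. All 32-base words in the 400 bp around each of the 3 P1 starts were unique in the genome (100%). Whether the placing of reads bears on which P1 was bound was not tested. Among 32851 promoter sequences of RefSeq (GRCm38.p6, short windows around the start), the word was found in 4, those of Runx1, Runx2, Runx3 and Gm16225, which is transcribed opposite to Runx3 at P1. A pair of RUNX motifs of any variant with a gap of at most 50 bp was found in 5.5% of these promoters and at least 1 motif in 45.2%. The table held 6 promoters of the 4 genes, with no P2 of Runx2.

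The tandem pair was also counted without the bases around it. ACCACA, 2 bases of any kind and ACCACA occurred 1388 times in the genome on either strand, and 40 of these sites (2.88%) lay within Runx3-bound regions. For single copies of ACCACA or TGTGGT the numbers were 11024 of 1980935 (0.557%). The tandem pair was present in 37 of the 9135 Runx3-bound regions (0.405%). Among the 21 at the RUNX genes and Cbfb, it was present in those at P1 of Runx1 and of Runx3. The pair was taken from the word shared by the P1 windows of the RUNX genes. Its presence at these P1 promoters was therefore fixed beforehand and is no result about the members. Their sites within Runx3-bound regions are among the 40.

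Stretches of 120 bases are given from the regions that were widest or richest in RUNX motifs at each gene, where such a stretch lay outside untranslated exons and held a motif. Each holds as many RUNX motifs as any window of that length in its region, on the strand of the gene and with the motifs in capitals.
Runx1, +4.01 kb from P1 (chr16:92822414-92822533): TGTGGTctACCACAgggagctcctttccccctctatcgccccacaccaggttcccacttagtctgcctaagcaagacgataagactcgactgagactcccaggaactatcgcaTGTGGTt
Runx2, +245 kb from P1 (chr17:44706411-44706530): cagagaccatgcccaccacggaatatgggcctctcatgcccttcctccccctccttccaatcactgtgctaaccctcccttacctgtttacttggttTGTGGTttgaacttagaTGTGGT
Runx2, +277.8 kb from P1 (chr17:44673634-44673753): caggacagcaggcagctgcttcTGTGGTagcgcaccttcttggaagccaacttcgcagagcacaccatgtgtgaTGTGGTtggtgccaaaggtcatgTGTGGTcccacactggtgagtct
Runx3, -21.59 kb from P1 (chr4:134655276-134655395): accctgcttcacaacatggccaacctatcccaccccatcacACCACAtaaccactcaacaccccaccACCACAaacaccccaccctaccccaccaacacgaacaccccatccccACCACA
Runx3, at P1 (chr4:134676409-134676528): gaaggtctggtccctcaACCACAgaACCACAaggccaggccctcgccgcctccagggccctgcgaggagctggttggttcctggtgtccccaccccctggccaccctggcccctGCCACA
Cbfb, +94.22 kb from its start (chr8:107788780-107788899): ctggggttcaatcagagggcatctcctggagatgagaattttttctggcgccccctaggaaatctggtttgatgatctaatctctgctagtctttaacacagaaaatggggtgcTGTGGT
Cbfb, -12.95 kb from its start (chr8:107681514-107681633): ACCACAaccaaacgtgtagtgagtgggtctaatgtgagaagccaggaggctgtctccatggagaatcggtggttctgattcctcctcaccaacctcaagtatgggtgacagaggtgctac

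All 4 genes had at least 1 Runx3-bound region in the gene body or within 50 kb, which 48.0% of the 22253 protein-coding genes also had. The number of regions set them apart from each other: 10 at Runx1, 5 at Runx3, 4 at Runx2 and 2 at Cbfb. H3K4me1-marked regions were found at all 4 genes as well, as at 52.3% of protein-coding genes, with 16 at Runx3, 15 at Runx2, 13 at Runx1 and 2 at Cbfb. Runx3 binding lay in different parts of each gene. At Runx1 all 10 regions lay in the gene body or over its start, at Runx2 all 4 were intronic and past P2, and at Runx3 all 5 were centred upstream of P1. At Cbfb 1 region lay upstream of the gene and 1 downstream of it.

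**Figure D1:**
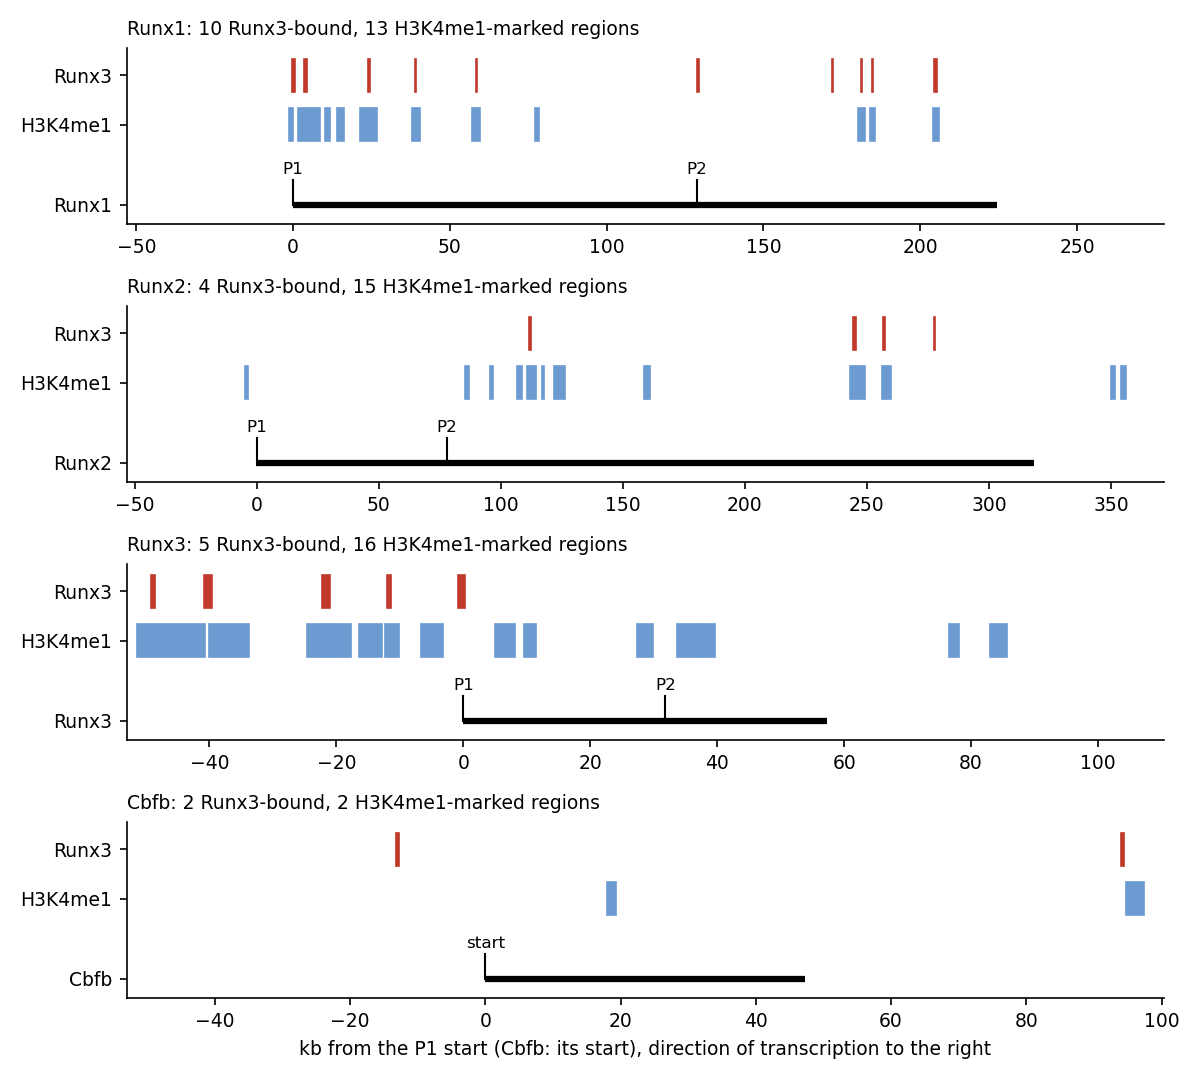
Maps of the 4 loci, each with its 50 kb flanks, on an axis in kb from the P1 start (Cbfb: its single start) with the direction of transcription to the right. Red boxes are Runx3-bound regions, blue boxes H3K4me1-marked regions and the black bar the gene body. The 10 regions at Runx1 spread over the gene body, the 4 at Runx2 lie past P2 and the 5 at Runx3 lie upstream of or over P1.

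Runx3 (chr4:134676567-134733905, plus strand, 57.34 kb) was bound by its own product in the upstream part of its locus. The region at P1 (134675703 to 134676844) was 1142 bp wide, extended over the start site and that of the divergent antisense gene Gm16225, and was centred 0.294 kb upstream of the start. It held 11 RUNX motifs, a number reached by 0.263% of the 9135 Runx3-bound regions, and it did not overlap H3K4me1. Of its 11 motifs, 6 were TGTGGC, 4 TGTGGT and 1 TGCGGC. The nearest H3K4me1-marked region ended 3.18 kb upstream of the P1 start.

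The other 4 Runx3-bound regions at Runx3 were intergenic and were centred 11.73, 21.59, 40.21 and 48.92 kb upstream of P1, and all 4 overlapped H3K4me1. The one at 21.59 kb (134654325 to 134655631) was 1307 bp wide, a width reached by 0.263% of all Runx3-bound regions, held 8 RUNX motifs and bridged gaps of 24 and 8 bp between 3 H3K4me1-marked regions. The one at 40.21 kb (134635754 to 134636955) was 1202 bp wide, held 2 RUNX motifs and bridged a gap of 669 bp between H3K4me1-marked regions, which covered 44.3% of it. Those at 11.73 and 48.92 kb were 658 and 633 bp wide, were covered by H3K4me1 in full and held 1 and 5 RUNX motifs. At Runx3, 3 of the 5 regions, at P1 and at 21.59 and 40.21 kb, belonged to the widest 1% of the list.

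No Runx3-bound region was listed within the Runx3 gene past P1, and the one nearest to P2 was the region at P1, 31.6 kb away. H3K4me1-marked regions, by contrast, lay on both sides of P1 and on both sides of P2, up to 134716190, past which the rest of the gene had none. The 50 kb upstream of P1 was covered to 63.4% by 9 H3K4me1-marked regions, the 31.84 kb between P1 and P2 to 23.9% by 3, and the 25.5 kb from P2 to the gene end to 23.4% by 2. The widest of them (134625180 to 134635880, 10701 bp) lay 40.7 kb or more upstream of the gene. When H3K4me1-marked regions closer than 1 kb were joined, it became part of a domain of 20.46 kb (134622290 to 134642750) that overlapped 3 Runx3-bound regions, and 0.101% of the joined regions of the genome were as long. One of these 3 was just outside the 50 kb limit, at 52.43 kb from the gene body (134623538 to 134624133), overlapped H3K4me1 and is not counted above. The region just inside the limit was the one 48.61 kb from the gene body.

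**Figure D2:**
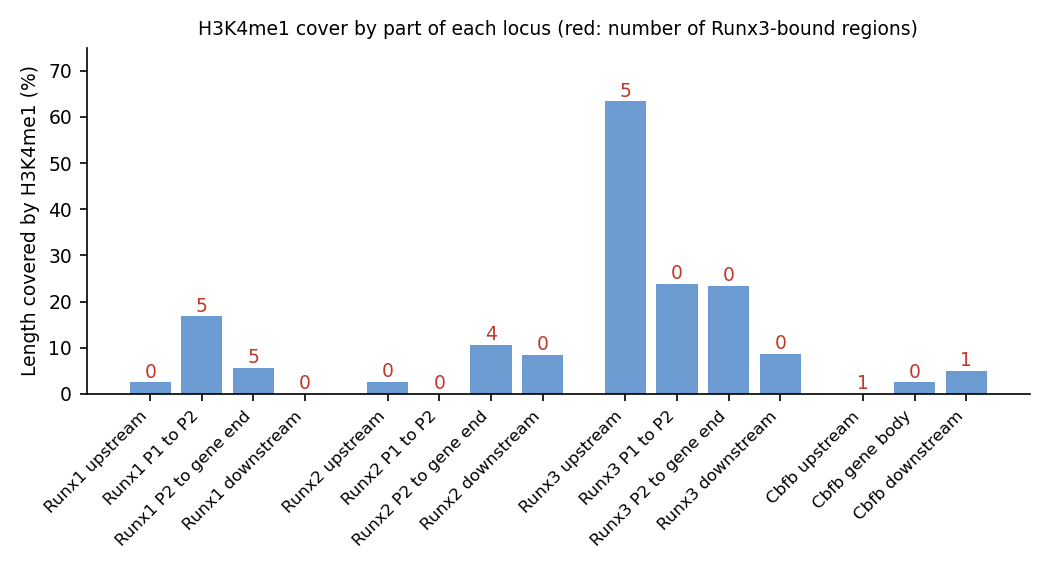
Percent of the length covered by H3K4me1-marked regions (bars) in the parts of each locus, where upstream and downstream are the 50 kb flanks, with the number of Runx3-bound regions centred in each part in red. The flank upstream of Runx3 P1 reaches 63.4% and holds 5 Runx3-bound regions, and no other part exceeds 23.9%.

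Runx1 (chr16:92601712-92826311, minus strand, 224.6 kb) carried a Runx3-bound region at each of its promoters. From expression and Runx3 binding, the authors had reported Runx1 as repressed by Runx3 in IL-2-activated CD8-TC and NK cells. The region at P1 (92825695 to 92826588) was 894 bp wide, held 3 RUNX motifs, all of them TGTGGT, and lay over the start site. An H3K4me1-marked region that began 0.166 kb upstream of the start covered 12.5% of it. The region at P2 (92696778 to 92697366) was 589 bp wide, lay over an exon of Runx1 from 0.207 kb downstream of the start, and held 4 RUNX motifs, 1 of each variant. It did not overlap H3K4me1, and the nearest H3K4me1-marked region was 50.5 kb away.

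Between P1 and P2 of Runx1, 4 further Runx3-bound regions lay in the long intron that ends past P2. They were centred 4.01, 24.34, 39.09 and 58.44 kb from P1 and all overlapped H3K4me1. The region at 4.01 kb (92821866 to 92822737, 872 bp) held 7 RUNX motifs, 5 of them TGTGGT, a number reached by 1.78% of all Runx3-bound regions. It lay in the widest H3K4me1-marked region of the gene (92817770 to 92824698, 6929 bp). The region at 24.34 kb (92801633 to 92802301) held 1 RUNX motif and bridged a gap of 16 bp between 2 H3K4me1-marked regions. The region at 39.09 kb was the one with the lowest share of unique 32-base words, 78.57%, among the 21. A haematopoietic enhancer of Runx1 is known between P1 and P2, but its position was not compared with these regions.

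Past P2, 4 more Runx3-bound regions were intronic, centred 43.31, 52.49, 56.03 and 76.11 kb downstream of P2. The first (92654022 to 92654508) did not overlap H3K4me1 and the other 3 were covered by it in full. They held 1 or 2 RUNX motifs each. No Runx3-bound region was listed in either 50 kb flank of Runx1, and none when the flank was extended to 100 kb. H3K4me1 covered 16.8% of the 128.7 kb between P1 and P2 with 9 regions, 5.7% of the 95.86 kb past P2 with 3, 2.52% of the upstream flank with 1 and none of the downstream flank. No protein-coding neighbour lay within the extended locus.

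Runx2 (chr17:44632936-44951746, minus strand, 318.8 kb) was Runx3-bound at neither of its promoters. The Runx3-bound region nearest to the P1 start was 78.9 kb upstream of it, within the gene Supt3h. Supt3h (44914101 to 45256239, plus strand) also overlaps the P1 start of Runx2 and part of the interval between P1 and P2. The Runx3-bound region nearest to the P2 start was 33.7 kb downstream of it. The annotation gives 18 Runx2 transcripts with 11 different starts, and none had a Runx3-bound or an H3K4me1-marked region within 1 kb. The 77.93 kb between P1 and P2 held 0 Runx3-bound and 0 H3K4me1-marked regions. In Runx1 the corresponding interval held 5 and 9.

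The 4 Runx3-bound regions of Runx2 were centred 34.02, 167, 179.2 and 199.9 kb downstream of P2. The one at 167 kb (44705993 to 44707120) was 1128 bp wide, which 0.81% of all Runx3-bound regions reached, held 4 RUNX motifs and bridged a gap of 239 bp between 2 H3K4me1-marked regions. Those at 34.02 and 179.2 kb were 591 and 720 bp wide, held 2 RUNX motifs each and were covered by H3K4me1 in full. The one at 199.9 kb (44673450 to 44673938, 489 bp) held 5 RUNX motifs, all TGTGGT, and did not overlap H3K4me1. H3K4me1 covered 10.7% of the 240.7 kb past P2 with 12 regions, the widest of which (44825139 to 44829647, 4509 bp) held no Runx3-bound region. The remaining 3 marked regions were 1 upstream of P1, 3.65 kb from its start, and 2 in the downstream flank.

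Cbfb (chr8:107694574-107741886, plus strand, 47.31 kb) had no Runx3-bound region within its gene body or at its start. The nearest (107681404 to 107681837, 434 bp) was intergenic, centred 12.95 kb upstream of the start between Ces4a and Cbfb. The other (107788536 to 107789050, 515 bp) was centred 94.22 kb downstream of the Cbfb start and lay over the start of Fbxl8, 0.245 kb from it and next to the divergent start of Tradd, so it is nearer to these genes than to Cbfb. Each held 1 RUNX motif, a TGTGGT, and neither overlapped H3K4me1. H3K4me1-marked regions lay in the gene body, 18.66 kb from the start (107712636 to 107713834, 1199 bp), and beyond the gene, 96.09 kb from the start (107789361 to 107791971, 2611 bp). H3K4me1 covered 2.53% of the extended Cbfb locus, compared to 31.5% at Runx3, 8.75% at Runx1 and 7.5% at Runx2. The coding genes D230025D16Rik and B3gnt9-ps also lay in the extended Cbfb locus, and Clic4 in part in that of Runx3. No Runx3-bound region of these loci overlapped them.

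Taking the 7 promoters side by side, 3 had a Runx3-bound region within 1 kb of the start, P1 of Runx1, P2 of Runx1 and P1 of Runx3. The other 4 were P1 and P2 of Runx2, P2 of Runx3 and the start of Cbfb. Among all 45940 starts of coding transcripts, 9.92% had such a region. A gene can have several of these starts, whereas each of the 7 promoters was counted by its most upstream start. An H3K4me1-marked region within 1 kb was found only at P1 of Runx1 among the 7, compared to 9.18% of all coding starts. Outside the 7, the starts of 2 processed transcripts of Runx3 just past P2 (134709420 and 134710351) also had one. The nearest H3K4me1-marked region was 1.79 kb from P2 of Runx3, 3.18 kb from P1 of Runx3, 3.65 kb from P1 of Runx2, 7.27 kb from P2 of Runx2, 18.1 kb from the Cbfb start and 50.5 kb from P2 of Runx1.

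P1 and P2 differed in base composition in each of the RUNX genes. Over 2 kb around the start, the observed over expected number of CpG was 0.356, 0.291 and 0.296 at P1 of Runx1, Runx2 and Runx3, and 0.745, 0.89 and 0.779 at P2. At the Cbfb start it was 0.921. GC content was 48.7, 42.5 and 54.6% at these P1 and 55.8, 55.9 and 67.2% at these P2 promoters, in the same order. The number of RUNX motifs in these windows did not separate bound from unbound promoters: the bound ones held 6, 9 and 11, and the unbound ones 10 at P1 of Runx2, 6 at P2 of Runx2, 9 at P2 of Runx3 and 3 at the Cbfb start. TGCGGC was the commonest variant at P2 of Runx1 (5 of 9), P2 of Runx3 (4 of 9) and the Cbfb start (3 of 3), and TGTGGT at P1 of Runx1 (4 of 6), P1 of Runx2 (7 of 10) and P2 of Runx2 (3 of 6). At P1 of Runx3 it was TGTGGC (6 of 11).

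**Figure D3:**
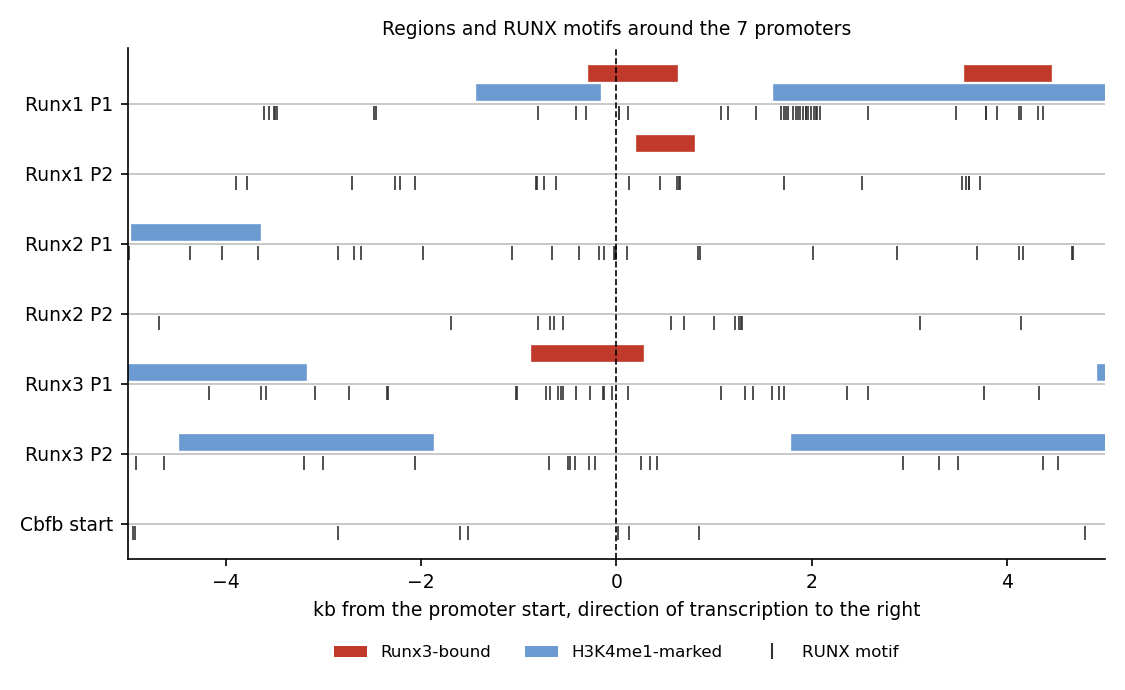
Runx3-bound regions (red), H3K4me1-marked regions (blue) and RUNX motifs (ticks) within 5 kb of the 7 promoter starts, on an axis in kb with the direction of transcription to the right. Red boxes lie at P1 and P2 of Runx1 and at P1 of Runx3, while RUNX motifs are seen near all 7 starts.

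Of the 21 Runx3-bound regions, 15 overlapped H3K4me1 (71.4%, interval 50 to 86.2%), compared to 57.3% of all Runx3-bound regions, which lies within that interval. The share was 8 of 10 at Runx1, 4 of 5 at Runx3, 3 of 4 at Runx2 and 0 of 2 at Cbfb. The centre of the region lay in H3K4me1 in 12 of the 15. Of the 6 regions without overlap, 2 were at promoters of RUNX genes (P1 of Runx3 and P2 of Runx1), 2 were intronic (1 each in Runx1 and Runx2) and 2 were those at Cbfb. Of the 15 overlapping regions, 4 bridged a gap between neighbouring H3K4me1-marked regions (26.7%), compared to 688 of 5234 in the whole list (13.1%). No interval was computed for this share. The bridging regions at Runx2 (1128 bp) and Runx3 (1202 and 1307 bp) belonged to the widest 1% of the list, and that at Runx1 was 669 bp wide. Regions of like width were not compared. Conversely, 19 of the 46 H3K4me1-marked regions (41.3%) overlapped a Runx3-bound region by at least 1 bp, compared to 29.2% of all. This was 9 of 13 at Runx1, 6 of 16 at Runx3, 4 of 15 at Runx2 and 0 of 2 at Cbfb. The median width of the 46 was 2100 bp and that of all H3K4me1-marked regions 1592 bp.

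All 21 Runx3-bound regions held a RUNX motif, as did 92.6% of all Runx3-bound regions. The 21 regions held 68 motifs in total, of which 40 were TGTGGT, 20 TGTGGC, 5 TGCGGT and 3 TGCGGC. Per region the number ranged from 1 (in 6 regions) to 11, with a median of 2 in the 21 and in the whole list. Pairs of RUNX motifs with a gap of at most 50 bp were found in 11 of the 21 (52.4%, interval 32.4 to 71.7%), compared to 37.4% of all. They were in 6 of 10 regions at Runx1, 3 of 5 at Runx3, 2 of 4 at Runx2 and 0 of 2 at Cbfb. The 21 regions were wider, with a median of 633 bp compared to 521 bp. Per kb, the mean number of RUNX motifs was 4.4 in the 21 and 4.35 in the whole list.

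**Figure D4:**
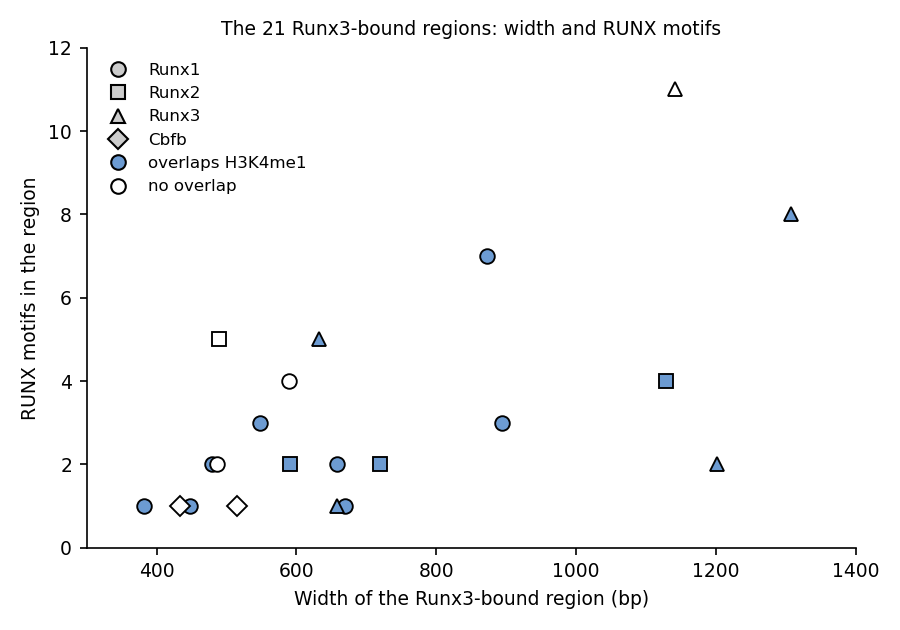
Number of RUNX motifs against width in bp for the 21 Runx3-bound regions, with the symbol showing the gene and blue fill an overlap with H3K4me1. The region at P1 of Runx3, without H3K4me1, has 11 motifs in 1142 bp, and both regions at Cbfb have 1 motif.

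Motifs of factors that often bind beside RUNX proteins were also present. The ETS motif, counted on either strand as GGAA with A or C before it and A or G after it, was found in all 21 regions and in 88.9% of the whole list. The AP-1 motif, TGACTCA or TGAGTCA, was found in 6 of 21 (28.6%, interval 13.8 to 50%) and in 13.5% of the whole list. The 21 regions were wider, with a median of 633 bp compared to 521 bp, and AP-1 motifs were not counted per kb. The AP-1 motif was in 4 of the 10 regions at Runx1, including those at both promoters, and in 1 region each at Runx2 and Runx3. The latter were the one 167 kb past P2 of Runx2 and the one 40.21 kb upstream of Runx3. Motifs were counted wherever they occurred, including where they overlapped each other. The RUNX motif was in the central 200 bp of 14 of the 21 regions (66.7%, interval 45.4 to 82.8%), compared to 78.7% of all.

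Most RUNX motifs of the 4 loci lay outside Runx3-bound regions. The extended Runx1, Runx2, Runx3 and Cbfb loci held 675, 662, 385 and 248 motifs, of which 3.85, 1.96, 7.01 and 1.21% touched a Runx3-bound region. The densest cluster of the Runx1 locus, 17 motifs in 398 bp (92824227 to 92824624), was centred 1.89 kb downstream of P1 in H3K4me1-marked sequence and contained no Runx3-bound region. In the Runx3 locus the densest cluster, 7 motifs in 487 bp, lay in part in the bound region at P1. In the Runx2 locus it was 7 motifs in 500 bp over P1, which was not bound. In the Cbfb locus it was 16 motifs in 486 bp near the end of the gene, in sequence where 21.1% of the 32-base words differed from each other, that is in largely repeated sequence.

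Against all 22253 protein-coding genes, the number of Runx3-bound regions at Runx1 was high, with 10 or more at 36 genes (0.162%). The 5 at Runx3 were reached by 3.31% of genes, the 4 at Runx2 by 6.68% and the 2 at Cbfb by 26.2%, where the median gene had 0. The counts at Runx3 and Cbfb depend on the flank, with 2 and 1 regions within 20 kb and 7 and 3 within 100 kb, whereas Runx1 had 10 with flanks of 20, 50 and 100 kb and Runx2 4, 4 and 5. Long genes span more sequence, and per 100 kb of extended locus the order changed. Runx3 then had 3.18 regions, a density reached by 4.39% of genes, Runx1 3.08 (4.57%), Cbfb 1.36 (22.5%) and Runx2 0.955 (28.9%). The H3K4me1 cover of 31.5% at Runx3 was reached by 0.189% of genes, that of 8.75% at Runx1 by 8.79%, that of 7.5% at Runx2 by 11% and that of 2.53% at Cbfb by 30.7%. The median gene had a cover of 0.655%.

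**Figure D5:**
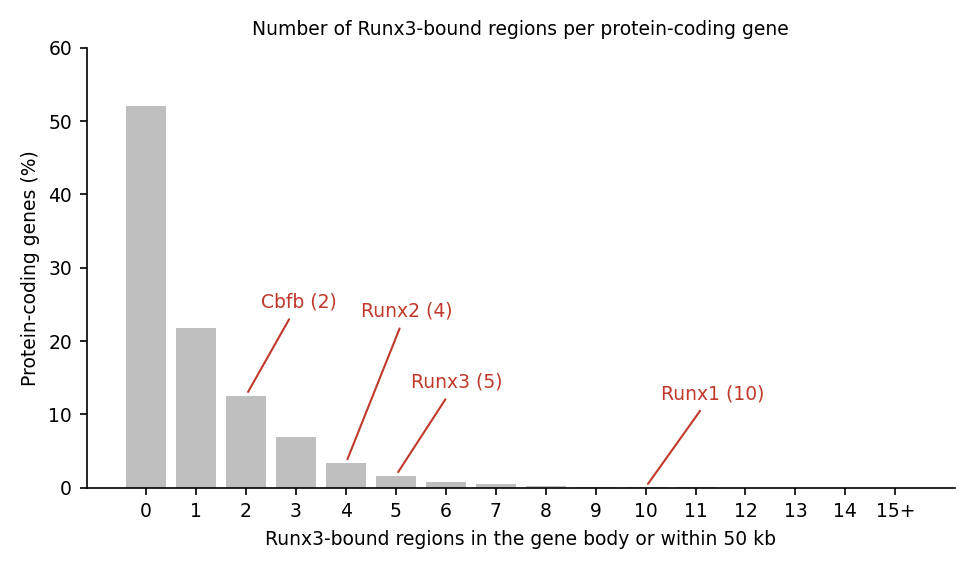
Percent of the 22253 protein-coding genes (bars) by the number of Runx3-bound regions in the gene body or within 50 kb, with the 4 genes marked. Runx1 stands at 10 regions, Runx3 at 5, Runx2 at 4 and Cbfb at 2, and the median gene has 0.

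Genes of 18 known partners and cofactors of RUNX proteins were counted in the same way. They comprised TLE and ETO family corepressors, histone acetyltransferases and methyltransferases, Sin3a and Hdac1, the kinase Hipk2, and partner transcription factors and coactivators. Of the 18, 16 (88.9%) had at least 1 Runx3-bound region, against the 48.0% of protein-coding genes, with a median of 2 regions per gene. The list was chosen with earlier results of these data known. It includes Ets1 and Smad3, which the authors had reported as Runx3-regulated in IL-2-activated cytotoxic lymphocytes. The 48.0% covers all protein-coding genes, whether expressed in these cells or not, so the share only describes the list. An H3K4me1-marked region was found at 13 of the 18, compared to 52.3% of protein-coding genes. The most Runx3-bound regions were at Smad3, a mediator of TGF-beta signalling, with 8 regions, all of which overlapped H3K4me1, and 17 H3K4me1-marked regions. Runx1t1, the gene of the corepressor ETO, and Wwtr1, the gene of the coactivator TAZ, had 0 of either. A Runx3-bound region within 1 kb of the annotated gene start was found at 1 of the 18, Tle1, a corepressor gene named here because of this value. Among all starts of coding transcripts, where a gene can have several, the share was 9.92%, so the units differ. Gene lengths differ, and at Smad3 the density was 3.79 Runx3-bound regions per 100 kb, compared to 3.18 at Runx3.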

How the data were processed

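The authors aligned reads to mm9 with ELAND, kept uniquely placed reads, pooled the repeats and ran MACS with the pooled NIS reads as control, after scaling the larger read set down. The deposited values are other than counts or scores, namely the start and end in bp of each called peak, in 1 list for Runx3 and 1 for H3K4me1. The labels give 1 H3K4me1 library, whereas the protocol speaks of replicate experiments for both antibodies. Repeated sequence is not seen by uniquely placed reads.

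Regions were joined to GENCODE vM1 genes on NCBIM37, which is mm9, with an overlap of at least 1 bp and coordinates counted from 1. Promoters were assigned by the first residues of the annotated coding sequence, with the most upstream start of each class. The P1 protein of Runx1 differs from the written rule in the fourth residue and was taken as P1. Motifs were searched on both strands. Uniqueness is the share of a window's 32-base words with 1 occurrence in the 21 chromosomes, both strands considered.

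No test was run, since each antibody has 1 list. The members and lists were chosen with earlier results of these data known. Named were the 4 genes, neighbours inside their loci, the cofactors with most and with 0 regions, and regions at promoters, widest or richest in RUNX motifs. Positions of the other members complete the account. Functions had 0 differences from direct counting on simulated data, in 300 trials of each. Python 3.11.15, NumPy 2.4.6, SciPy 1.17.1, Biopython 1.88 and matplotlib 3.10.9 were used. Alternatives were other flanks, region centres, joined regions, and other settings for H3K4me1 overlap, promoter windows and motifs.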

Additional observations from a re-analysis of the deposited data

How the results depend on the processing

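Of 23 values recomputed under alternatives for 7 results, 20 stayed within 1.5 times the count or within the interval of the share. The share of the 21 Runx3-bound regions with a RUNX motif was 66.7% when only the central 200 bp were searched. The share of protein-coding genes with a Runx3-bound region was 34.2% with flanks of 20 kb and 60.9% with flanks of 100 kb, as a narrower or wider flank holds fewer or more regions. The number of Runx3-bound regions at the 4 loci was 17 and 25 with these flanks, and 20 when only regions whose nearest coding start belongs to the member gene were counted, a setting chosen after the data were examined. With flanks of 20, 50 and 100 kb, Runx3-bound regions numbered 2, 5 and 7 at Runx3 and 1, 2 and 3 at Cbfb, and H3K4me1-marked regions 10, 16 and 18 at Runx3 and 1, 2 and 3 at Cbfb. No paired analysis was possible because repeats were pooled into 1 peak list per antibody and no value comes from a test. The lists carry no peak height, so binding strength and the depth behind a missing region cannot be judged.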
